A study of Mus musculus with 14 samples.

Results

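The RNA on Purkinje cell ribosomes of mice without ASTN2 was compared with the RNA of the whole cerebellum they came from. The members are the 4 ribosome-bound libraries and the 3 whole-cerebellum libraries labelled Astn2 KO, taken by label. They make 7 of the 14 libraries of the study, and earlier results of these data were known when they were chosen. All mice were postnatal day 21 and carried the transgene Tg(Pcp2-Egfp-L10a), in which the Purkinje cell promoter Pcp2 drives ribosomal protein L10a fused to the green fluorescent protein EGFP. The KO mice lacked Astn2, and their WT littermates, with the same transgene, served as the other genotype (3 TRAP and 4 input libraries). Of each cleared homogenate, 3% was kept as input, and the rest was purified with antibodies against GFP (translating ribosome affinity purification, TRAP). The TRAP KO libraries came from 2 females and 2 males, and the input KO libraries from 2 females and 1 male. How the KO allele was made, and whether a library is 1 animal or a pool, are not given in the sources used here, so p-values measure the spread between these libraries.

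Purkinje cells are the large GABAergic neurons that carry the output of the cerebellar cortex. They receive glutamate from granule cell axons and from climbing fibres, answer in part through calcium released from stores by IP3, and are known for strong expression of calcium-binding proteins. ASTN2 is a membrane protein of the astrotactin family that takes part in protein trafficking in neurons. TRAP enriches RNA that is bound to tagged ribosomes, while input holds RNA of all cerebellar cells, most of them granule cells and glia.

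Total counts ranged from 21409528 to 35726680 in TRAP KO and from 36413523 to 54229183 in input KO. The 10 most abundant genes took 8.82 to 9.77% of the counts in TRAP KO and 2.58 to 2.66% in input KO. Among the WT libraries, TRAP WT replicate 3 stood apart from the other two for several Purkinje genes, with Pcp2 at 18639 CPM (counts per 1e6 counts of a library, with TMM scaling) against 11778 and 10802 CPM, and Gng13 at 1426 CPM against 4412 and 5605 CPM. Among the KO libraries, input KO replicate 2 carried choroid plexus transcripts and input KO replicate 1 carried red blood cell transcripts, as given below. List medians and single-gene differences between KO and WT are given below with and without TRAP WT replicate 3, and the choroid plexus and erythrocyte lists with and without the input library concerned.

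Astn2 RNA was close to absent in every KO library. It stood at 1.33, 1.58, 2.11 and 1.06 CPM in TRAP KO replicates 1 to 4, and at 0.729, 0.968 and 0.934 CPM in input KO replicates 1 to 3. In WT it was 117 to 146 CPM in TRAP and 88.8 to 104 CPM in input, so no KO library overlapped any WT library. These KO levels rest on 24 to 64 counts a library. Rpl10a, the gene of the tagged protein, was 270 to 311 CPM in TRAP KO and 81.4 to 87.7 CPM in input KO, a log2 fold change of 1.75 ± 0.14 (SE; adjusted p = 9.27e-08, edgeR). It ranked 5 of 83 ribosomal protein genes tested by log2 fold change, and counts from the transgene cannot be told apart from those of the native gene.

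Most of the transcriptome differed between the fractions. Of 16042 genes tested in KO, 5817 were higher in TRAP (36.3%) and 6359 were lower (39.6%) at an adjusted p under 0.05, together 12176 genes (75.9%). Past 1 log2 unit in size, 3557 were higher (22.2%) and 4562 were lower (28.4%). At a log2 fold change of at least 3, 266 were higher (1.66%) and 283 were lower (1.76%). All values below are read against these shares, and the median log2 fold change over all genes was -0.11. TRAP values are relative to the rest of the library, so fewer cells of a type in the homogenate and less RNA per cell cannot be told apart.

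The Purkinje markers Pcp2, Pcp4, Car8 and Gng13 were among the strongest transcripts of the TRAP KO libraries, between 10.7-fold and 26.6-fold above input. Pcp2 (a GoLoco-domain protein that modulates G protein signalling) and Pcp4 (a small calmodulin-binding protein) carry the names of the cell type. The 250 bases before the RefSeq start of 3 of these markers (GRCm38.p6) are shown because the Pcp2 promoter also drives the tag. Capitals mark AGGTCA or its reverse complement TGACCT, the half-site bound by ROR-type nuclear receptors, of which RORA is a Purkinje cell regulator.
Pcp2, chr8:3625548-3625797, minus strand: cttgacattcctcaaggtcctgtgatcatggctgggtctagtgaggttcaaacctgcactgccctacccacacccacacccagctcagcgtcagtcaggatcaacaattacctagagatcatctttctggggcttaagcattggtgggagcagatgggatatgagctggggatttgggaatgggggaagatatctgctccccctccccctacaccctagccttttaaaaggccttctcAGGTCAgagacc
Pcp4, chr16:96467356-96467605, plus strand: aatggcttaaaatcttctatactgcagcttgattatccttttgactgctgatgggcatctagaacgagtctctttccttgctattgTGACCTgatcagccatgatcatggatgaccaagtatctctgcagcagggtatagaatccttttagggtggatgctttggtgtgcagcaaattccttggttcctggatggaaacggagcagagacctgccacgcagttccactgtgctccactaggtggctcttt
Gng13, chr17:25716922-25717171, plus strand: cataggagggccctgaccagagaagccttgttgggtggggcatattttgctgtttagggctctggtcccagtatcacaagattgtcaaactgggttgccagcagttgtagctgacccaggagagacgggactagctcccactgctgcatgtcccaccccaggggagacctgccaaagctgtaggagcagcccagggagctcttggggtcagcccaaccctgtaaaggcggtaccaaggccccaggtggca
The Pcp2 match ends 6 bases before the start, and the Pcp4 match, on the other strand, ends 158 bases before it. Gng13 had 0 matches in this window. Over all genes tested with a promoter entry, 1361 of 12612 windows (10.8%) held the motif on either strand, and among Purkinje identity genes 5 of 12 did. A match is a description of the letters and not a binding site.

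Pcp2 stood at 9700, 9577, 9565 and 8174 CPM in TRAP KO replicates 1 to 4, and at 378, 426 and 410 CPM in input KO replicates 1 to 3. TRAP KO replicate 4 was the lowest of the TRAP libraries and still far above every input library. The log2 fold change was 4.52 ± 0.20 (SE; adjusted p = 6.03e-10). Pcp4 was 24106, 19459, 19983 and 20748 CPM in TRAP KO, against 828, 972 and 1005 CPM in input KO. Replicate 1 was the highest, and the log2 fold change was 4.50 ± 0.18 (adjusted p = 4.13e-10). Car8, a carbonic anhydrase-related protein that binds the IP3 receptor, had 21152, 22013, 19921 and 25245 CPM in TRAP KO against 1846, 2058 and 2242 CPM in input KO. Its log2 fold change was 3.42 ± 0.12, with the highest input level of the 4 markers. Gng13, a G protein gamma subunit, had 4047, 3606, 3853 and 3222 CPM in TRAP KO against 129, 149 and 143 CPM in input KO. Its log2 fold change of 4.73 ± 0.37 was the highest of the 4 markers, with the widest error.

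All 20 genes of the Purkinje identity list were higher in TRAP KO, against 36.3% of all genes tested, and in each of them every TRAP library lay above every input library, which held for 37.8% of all genes. This list and the gene lists below were chosen with earlier results of these data known, so these shares are a description. The median log2 fold change was 2.83, with the highest value of 4.73 for Gng13. Inpp5a, an inositol polyphosphate 5-phosphatase, rose to 6839, 7035, 6504 and 7833 CPM from 517, 550 and 641 CPM. The summed level of the 20 genes was 95800 to 111000 CPM in TRAP KO and 9130 to 10600 CPM in input KO, a ratio of 10.5. That ratio rests on TMM scaling and would be lower with library totals. TRAP KO replicate 4 had the highest sum, and no TRAP library came near the inputs. With library totals in place of TMM, 18 of 20 genes remained called, with a median of 2.09. Leaving out each library in turn left 19 or 20 called.

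**Figure D1:**
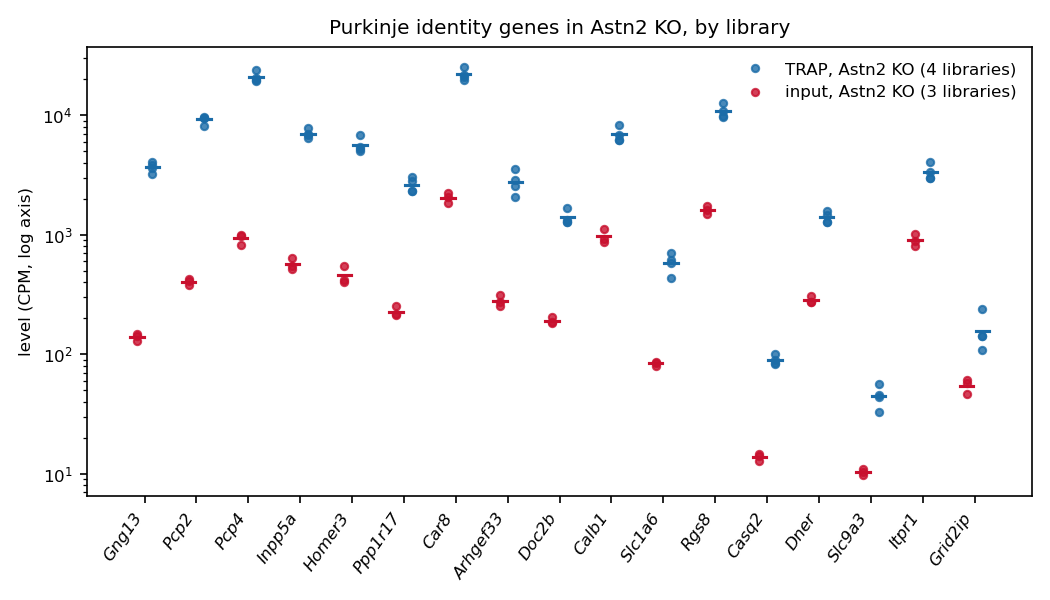
Level (CPM, log axis) of 17 of the 20 Purkinje identity genes in each Astn2 KO library, ordered by log2 fold change; blue points are the 4 TRAP libraries, red points the 3 input libraries, and bars the group means. In every gene drawn all TRAP points lie above all input points, with the widest gap for Gng13.

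Set per kilobase of the longest transcript, to compare levels between genes, Pcp4 was the most abundant RNA of TRAP KO, at rank 1 of 21166 genes with 32900 CPM per kilobase. Pvalb, the calcium buffer parvalbumin, was at rank 3, Pcp2 at rank 5, Car8 at rank 6, Gng13 at rank 8 and Aldoc, the glycolytic enzyme aldolase C (zebrin II), at rank 10. In input KO, Pcp2 was at rank 90 and Gng13 at rank 134, while Pcp4 was already at rank 3 and Pvalb at rank 6. Calm2, a calmodulin gene, was at rank 7 in TRAP KO, Selenow, a small selenoprotein, at rank 4 and Ywhah, a 14-3-3 protein, at rank 9. Snurf, at rank 2, shares its transcript with Snrpn, and its level is uncertain.

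The 10 genes with the highest log2 fold change were chosen by these values and are given as a description. They hold 3 of the markers and Lhx1os, the opposite-strand transcript of the Purkinje transcription factor gene Lhx1, whose counts are uncertain because the strand setting is not given. Cck, which encodes the neuropeptide cholecystokinin, was 319, 235, 295 and 135 CPM in TRAP KO and 11.6, 12.7 and 7.98 CPM in input KO. Replicate 4 was the lowest TRAP library, and the groups did not overlap, as the naming rule required. Gchfr, the feedback regulator of GTP cyclohydrolase I, was 143, 107, 99.3 and 150 CPM against 4.33, 3.97 and 6.29 CPM. Cox6b2, a subunit isoform of cytochrome c oxidase best known from testis, was 201, 151, 144 and 184 CPM against 8.06, 8.35 and 8.62 CPM. The others were 2410124H12Rik, the olfactory receptor gene Olfr1033 (10.3 to 27.3 CPM against 0.854 to 1.15 CPM) and Rsph3b, a member of a multi-copy family with uncertain counts. These log2 fold changes ranged from 4.26 to 4.73.

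The transcription factors of Purkinje cells followed the markers, with 1 exception. Of 12 genes, 11 were higher in TRAP KO (36.3% of all genes were) and 1 was lower, with a median log2 fold change of 2.15. Bcl11a, a zinc finger repressor, was 260, 240, 222 and 287 CPM in TRAP KO and 21.2, 21.4 and 26.6 CPM in input KO, a log2 fold change of 3.44 ± 0.14 (adjusted p = 4.46e-10). The LIM-homeodomain factor Lhx5 (3.11 ± 0.20) and the forkhead factor Foxp4 (3.10 ± 0.14) came next, and Skor2, a corepressor needed for Purkinje differentiation, was 2.62 ± 0.25. Foxp1, another forkhead factor, went the other way: 10.5, 9.90, 8.50 and 10.5 CPM in TRAP KO against 24.0, 22.0 and 24.6 CPM in input KO. Every TRAP library lay below every input library (log2 fold change -1.24 ± 0.27, adjusted p = 0.000879). The Foxp1 call was lost when transcript length was modelled (-0.54, adjusted p = 0.103). Rora was raised least, from 319 to 407 CPM in input KO to 496 to 887 CPM in TRAP KO (0.87 ± 0.17).

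Genes of IP3 signalling, which links glutamate to calcium release, were mostly higher. Their list also holds postsynaptic scaffold genes such as Homer3. Of 15 genes, 13 were higher (86.7%, against 36.3% of all genes) and 1 was lower (6.67%, against 39.6%). The median log2 fold change was 2.59. Gnaq, a G protein alpha subunit at the start of the pathway, had 619, 479, 432 and 722 CPM in TRAP KO against 250, 239 and 328 CPM in input KO (1.04 ± 0.24). The steps that handle IP3 showed larger differences. Itpka, the kinase that phosphorylates IP3, had 1168, 1287, 1257 and 1563 CPM against 74.1, 79.8 and 95.7 CPM, a log2 fold change of 3.96 ± 0.13 (adjusted p = 1.57e-10). Inpp5a, which removes a phosphate from IP3, was 3.61 ± 0.12, and Homer3, a postsynaptic scaffold, was 3.58 ± 0.16. The IP3 receptor gene Itpr1 itself had 3379, 2984, 3020 and 4068 CPM against 1010, 811 and 895 CPM (1.82 ± 0.29).

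Plcb4 and Homer1 did not follow the rest of the pathway. Plcb4, a phospholipase C that makes IP3, was 170, 223, 196 and 389 CPM in TRAP KO and 194, 179 and 208 CPM in input KO. The groups overlapped, with replicate 4 the only TRAP library above all inputs by a wide margin (log2 fold change 0.25, 95% interval -0.57 to 1.06, adjusted p = 0.563). Its relative Plcb3 was higher, at 250, 276, 270 and 371 CPM against 48.8, 45.2 and 62.1 CPM (2.45 ± 0.14). Homer1 was lower, at 27.2 to 38.8 CPM against 39.0 to 57.2 CPM (-0.55 ± 0.14, adjusted p = 0.0034). The Homer1 call was lost without input KO replicate 3 (-0.37, adjusted p = 0.0562) and with transcript length modelled (-0.06, adjusted p = 0.696).

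Calcium buffers and stores were higher in 11 of 15 genes and lower in 4, with a median log2 fold change of 1.41. The shares were 73.3% higher and 26.7% lower, against 36.3% and 39.6% of all genes. Pvalb had 17149, 12215, 12608 and 12086 CPM in TRAP KO against 752, 803 and 831 CPM in input KO (4.10 ± 0.39), with replicate 1 above the rest. Calb1, the buffer calbindin, had 6902, 6273, 6288 and 8319 CPM against 924, 878 and 1126 CPM (2.81 ± 0.13). Atp2a3, a calcium pump of the endoplasmic reticulum, was 1584 to 1816 CPM against 189 to 199 CPM (3.04 ± 0.28). Calcium extrusion genes of the plasma membrane made up 3 of the 4 lower members: Atp2b4 (9.48, 11.1, 10.6 and 5.40 CPM against 49.0, 52.8 and 43.1 CPM, log2 fold change -2.36 ± 0.24), the exchanger Slc8a2 (-1.57 ± 0.25) and Atp2b1 (-1.55 ± 0.22). The fourth was Ryr1, a ryanodine receptor (-1.0 ± 0.13), whose sign turned when transcript length was modelled (0.36).

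Ion channels split. Of 18 genes, 9 were higher (50%, against 36.3% of all genes) and 4 were lower (22.2%, against 39.6%). The median log2 fold change was 0.84. Kcnip1, an accessory subunit of A-type potassium channels, had 769, 754, 724 and 872 CPM in TRAP KO and 67.6, 67.0 and 82.3 CPM in input KO (3.41 ± 0.15, adjusted p = 6.17e-10). Scn4b, the sodium channel subunit tied to resurgent current, was 2.51 ± 0.22, the calcium channel subunit Cacnb2 2.47 ± 0.27, and the T-type channel Cacna1g 2.46 ± 0.28 (1151 to 1699 CPM against 244 to 255 CPM). Kcnc1, a fast potassium channel, was lower, at 200, 230, 259 and 173 CPM against 579, 632 and 540 CPM (-1.43 ± 0.15). Cacna1a, the pore of the P-type channel named after Purkinje cells, did not pass (0.07, 95% interval -0.39 to 0.53). With library totals the split was 9 higher and 8 lower (median 0.11), and with transcript length modelled 14 higher and 3 lower (median 1.40).

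Glutamate receptors and their partners were higher in 6 of 16 genes and lower in 4, a median of 0.37, so as a list they stood close to the background of 36.3% and 39.6%. The postsynaptic scaffold Shank1 had 684, 833, 724 and 859 CPM in TRAP KO and 236, 255 and 253 CPM in input KO (1.67 ± 0.16), and its relative Shank2 was 1.62 ± 0.32. Cacng2, the AMPA receptor auxiliary protein stargazin, was 1.63 ± 0.30. The AMPA receptor subunit gene Gria4 was the lowest member, at 38.5, 58.4, 60.5 and 30.5 CPM against 245, 280 and 239 CPM (-2.41 ± 0.21, adjusted p = 2.45e-07). Gria2, the subunit that sets calcium permeability, gave 0.12 (95% interval -0.15 to 0.39). With library totals the counts were 4 higher and 7 lower (median -0.37), and with transcript length modelled 11 higher and 2 lower (median 1.02).

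GABA is the transmitter that Purkinje cells release. Of 11 genes of its synthesis and receptors, 5 were higher (45.5%) and 3 lower (27.3%), where 36.3% of all genes were higher and 39.6% lower, so the shares were near the background. The median log2 fold change was 0.36. With library totals the counts were 2 higher and 5 lower, with a median of -0.38, so more genes were then lower than higher. Gad1, which makes GABA, had 1075, 848, 879 and 1134 CPM in TRAP KO and 359, 287 and 384 CPM in input KO (1.49 ± 0.13, adjusted p = 2.42e-07). All 4 TRAP libraries lay above the inputs, and with library totals its log2 fold change was 0.75.

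Genes of the zebrin stripes, which divide Purkinje cells into parasagittal bands, were higher in 7 of 9 and lower in 0. The share higher was 77.8%, against 36.3% of all genes, and 39.6% of all genes were lower. Plcb4, given above, was 1 of the 2 members not called (0.25, adjusted p = 0.563). Both band types were represented among the genes called higher. Aldoc of the zebrin-positive bands had 11816, 9414, 9485 and 11041 CPM in TRAP KO against 1658, 1378 and 1736 CPM in input KO (2.72 ± 0.17). Ebf2, a marker of zebrin-negative bands, was 2.26 ± 0.19. Sphk1, a sphingosine kinase, was 78.5, 80.0, 83.3 and 84.1 CPM against 7.18, 7.69 and 9.15 CPM (3.33 ± 0.11). Spinocerebellar ataxia genes were mixed, with 12 of 25 higher (48%, against 36.3% of all genes) and 8 lower (32%, against 39.6%), a median of 0.26. Among the higher ones were the T-type channel Cacna1g given above and Stub1, a ubiquitin ligase, with 501, 548, 551 and 524 CPM in TRAP KO against 118, 124 and 134 CPM in input KO (2.10 ± 0.24). Atxn7 and Ccdc88c were the lowest, both at -1.40. With library totals 9 ataxia genes were higher and 14 lower, with a median of -0.47. When transcript length was modelled, the lower genes Atxn1 (0.43), Tbp (0.42) and Ttbk2 (0.27) turned sign. Atxn1 (adjusted p = 0.0109) and Tbp (adjusted p = 0.00393) were then called higher with edgeR.

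**Figure D2:**
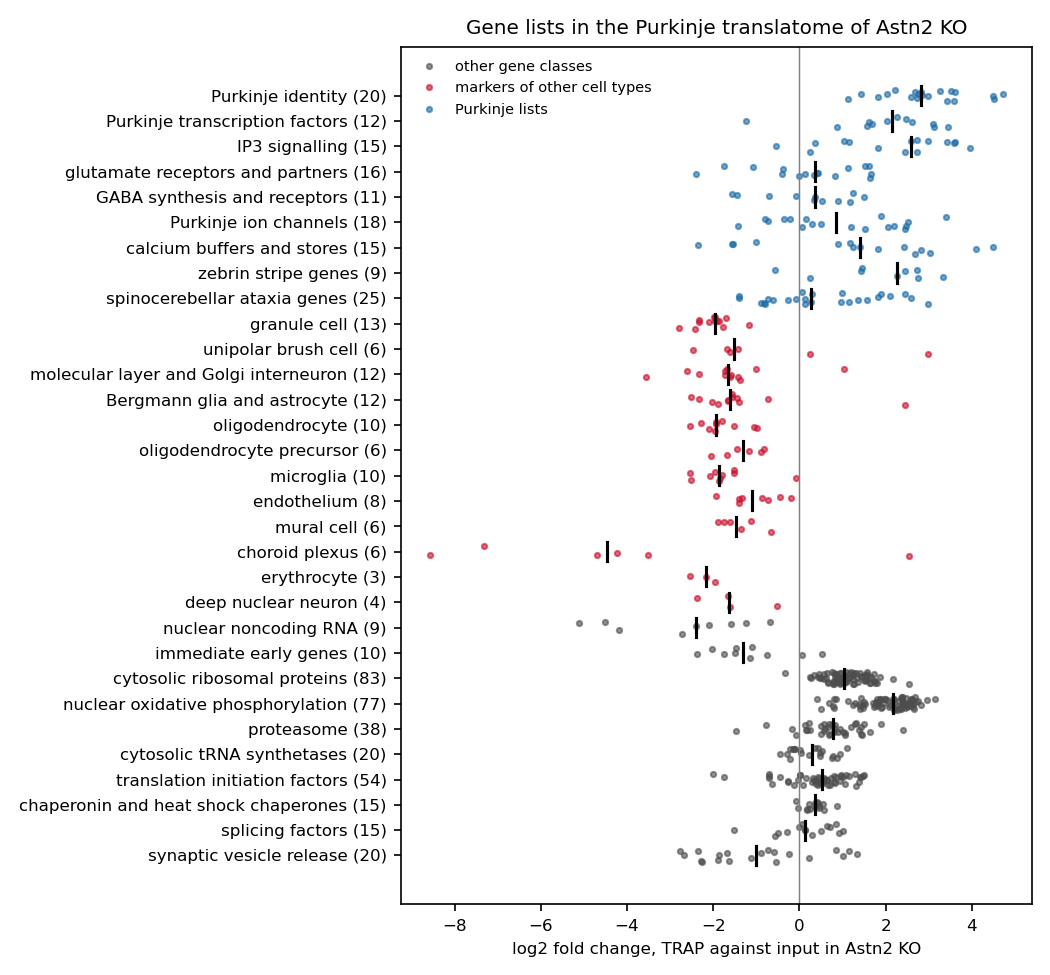
Log2 fold change of TRAP against input in Astn2 KO for each gene tested of the 31 lists (number of genes in parentheses); points are genes, black bars list medians, and colours the kind of list. Purkinje lists lie mostly to the right of 0 and lists of other cell types mostly to the left. Eif4ebp3, with 0 counts in every TRAP KO library, is not drawn.

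Markers of other cerebellar cells were lower in TRAP KO almost throughout. All 13 granule cell genes were lower (39.6% of all genes were), and in each every TRAP library lay below every input library (40.2% of all genes). Their median log2 fold change was -1.97. Etv1, a granule cell transcription factor, had 50.1, 69.3, 54.1 and 58.9 CPM in TRAP KO against 395, 359 and 466 CPM in input KO (-2.80 ± 0.17, adjusted p = 7.98e-09). Neurod1, a neuronal differentiation factor, was -2.43 ± 0.23 and the granule cell GABA receptor subunit Gabra6 was -2.33 ± 0.19. Also lower were 10 of 10 oligodendrocyte genes (median -1.94), 6 of 6 oligodendrocyte precursor genes (-1.32), 11 of 12 Bergmann glia and astrocyte genes (-1.61), 11 of 12 interneuron genes (-1.65) and 9 of 10 microglial genes (-1.86). Of unipolar brush cell genes 4 of 6 were lower, and of deep nuclear neuron genes 3 of 4. The vascular lists were lower in 4 of 8 endothelial and 5 of 6 mural genes, at mean levels from 0.309 CPM for Kcnj8 to 9.67 CPM for Rgs5 among the mural genes in TRAP KO. Slc6a5, the glycine transporter of Golgi cells, was among the most depleted, at 0.429, 0.702, 0.704 and 0.929 CPM against 7.72, 7.20 and 8.99 CPM (-3.55 ± 0.36).

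Depletion was partial, and its extent varied between TRAP libraries. Summed over the list, granule cell genes stood at 1030 to 1870 CPM in TRAP KO and 6360 to 6600 CPM in input KO, so that 24.0% of the input level was left. Oligodendrocyte genes stood at 999 to 2230 CPM against 5220 to 6200 CPM, with 27.7% left. More was left of other lists: 31.8% for deep nuclear neuron, 36.9% for mural cell, 42.9% for oligodendrocyte precursor, 45.8% for microglia and 48.7% for endothelium. The sums were at 50.8% of input for interneuron, 66.7% for Bergmann glia and astrocyte and 101% for unipolar brush cell genes, and each of these 3 lists holds 1 gene called higher. TRAP KO replicate 4 had the lowest sum for the granule cell and oligodendrocyte lists and the highest for Purkinje identity. Mobp, a myelin protein gene, was 78.7, 65.7, 103 and 64.4 CPM against 475, 346 and 526 CPM (-2.55 ± 0.17), so it was depleted without reaching 0. These sums and percentages rest on TMM scaling, with factors of 0.758 to 0.798 in TRAP KO and 1.26 to 1.32 in input KO. With library totals, which carry no such factors, each ratio of TRAP to input would be lower. The part of other cells' RNA in the TRAP results was not tested.

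**Figure D3:**
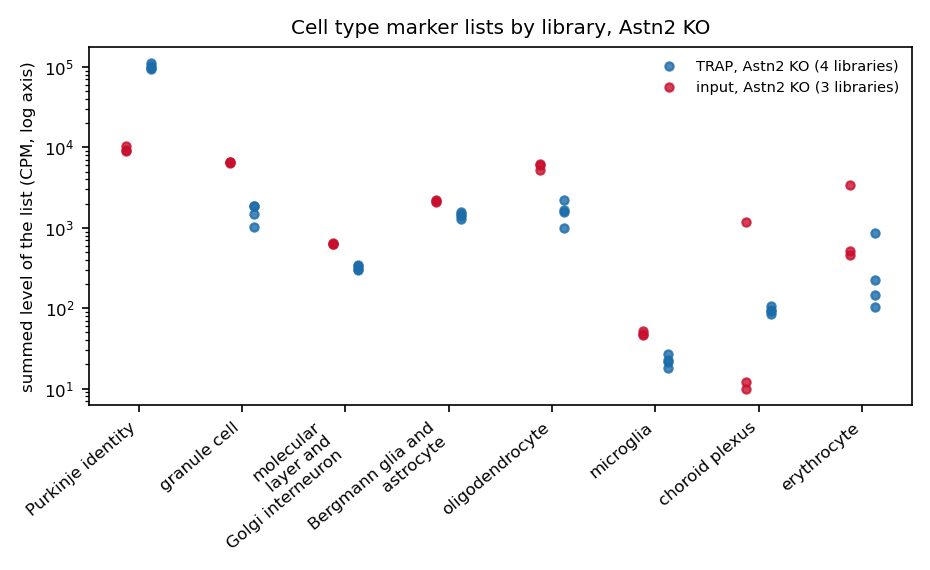
Summed level (CPM, log axis) of 8 cell type lists in each Astn2 KO library; blue points are the 4 TRAP libraries and red points the 3 input libraries. Purkinje identity is the list with TRAP far above input, and the spread between inputs is widest for choroid plexus and erythrocyte genes.

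Hopx, Prkcd and Clic6, written as markers of other cells, went against their lists. Hopx, listed for Bergmann glia, had 881, 822, 815 and 861 CPM in TRAP KO against 150, 164 and 150 CPM in input KO (2.46 ± 0.14, adjusted p = 4.55e-09), while the glial glutamate transporter Slc1a2 had 25.5 to 48.4 CPM against 205 to 237 CPM (-2.52 ± 0.20). Prkcd, protein kinase C delta, listed for interneurons, had 146, 148, 145 and 200 CPM against 90.2, 69.8 and 75.1 CPM (1.04 ± 0.17), and its call was lost with library totals (0.31, adjusted p = 0.117). Clic6, a chloride channel protein listed for choroid plexus, had 92.3, 103, 81.6 and 90.3 CPM against 7.35, 35.5 and 7.03 CPM (2.54 ± 0.51). No TRAP library of these 3 genes overlapped the inputs.

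The choroid plexus and erythrocyte lists rest on single libraries. Ttr, the transthyretin gene of the choroid plexus, was 1078 CPM in input KO replicate 2 and 2.66 and 1.09 CPM in replicates 1 and 3, against 1.15 to 1.88 CPM in TRAP KO. Without input KO replicate 2 the number of choroid plexus genes called lower went from 5 of 6 to 0, and the median log2 fold change from -4.46 to -0.54. Without TRAP KO replicate 1 or replicate 2, 2 choroid plexus genes were called lower. The summed erythrocyte level was 3396 CPM in input KO replicate 1 against 509.6 and 457.3 CPM in the others. Without that library the 2 erythrocyte genes called lower fell to 0, as they did without TRAP KO replicate 2, 3 or 4. Immediate early genes, which neuronal activity induces within minutes, were lower in 5 of 10 and higher in 0 (median -1.31). The 50% called lower stood against 39.6% of all genes, and 36.3% of all genes were higher. Without input KO replicate 2, where they were most abundant at a sum of 380.3 CPM, 3 were lower and the median was -0.57, and without input KO replicate 3, 8 were lower.

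The listed nuclear noncoding RNAs were lower throughout. All 9 were lower in TRAP KO (39.6% of all genes were), with a median log2 fold change of -2.39. Malat1, a nuclear speckle RNA, had 19.2, 16.5, 17.2 and 14.3 CPM in TRAP KO against 554, 774 and 476 CPM in input KO, a log2 fold change of -5.12 ± 0.23 (adjusted p = 6.84e-10). Meg3, an imprinted noncoding RNA, had 81.3, 76.3, 71.8 and 60.0 CPM against 1266, 1690 and 1103 CPM (-4.18 ± 0.27). Replicate 4 was the lowest TRAP library for both. Input KO replicate 2 was the highest input for both. By annotation, 339 of 907 long noncoding RNA genes tested were lower (37.4%) and 278 were higher (30.7%). That split was near the background of 39.6% lower and 36.3% higher.

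Among the 10 genes with the lowest log2 fold change, chosen by these values, Gm20594, Malat1, Meg3 and Mir124a-1hg (the host gene of a miR-124 copy, 6.90 to 12.1 CPM against 228 to 332 CPM) are annotated without a well-known protein product. The other 6 encode proteins. Igsf9b, an adhesion molecule of inhibitory synapses on interneurons, had 1.56, 2.95, 1.70 and 3.27 CPM in TRAP KO against 44.1, 46.4 and 41.7 CPM in input KO (-4.20 ± 0.25). Tenm1 is a teneurin adhesion protein (-4.09 ± 0.36), Tnr the glial matrix protein tenascin R (-3.78 ± 0.34), Fzd3 a Wnt receptor (-3.63 ± 0.15), Trpm3 a cation channel (-3.62 ± 0.24) and Lin7a a synaptic scaffold (-3.53 ± 0.16). All TRAP libraries lay below all inputs for each of these 10 genes, which the naming rule required.

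Genes of energy and protein production were higher on Purkinje ribosomes. All 77 nuclear genes of oxidative phosphorylation were higher in TRAP KO (36.3% of all genes were), with a median log2 fold change of 2.18 and a range from 0.41 for Ndufs1 to 3.15 for Uqcr11. Uqcr11, a small subunit of complex III, had 951, 781, 830 and 689 CPM in TRAP KO against 87.6, 97.0 and 93.0 CPM in input KO. Ndufa1 of complex I was 346 to 550 CPM against 52.5 to 71.9 CPM (2.95 ± 0.22). Of 83 cytosolic ribosomal protein genes tested (of 86), 77 were higher and 0 lower (median 1.03). Rpl41, for example, had 771, 557, 611 and 520 CPM against 127, 151 and 132 CPM (2.18 ± 0.37). Ribosomal protein genes have many near-identical pseudogenes, so single values are uncertain. Rps15a was the only one below 0 (-0.34, adjusted p = 0.0767).

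Proteasome genes were higher in 26 of 38 and lower in 1 (median 0.78), led by the subunit Psmb10 (50.8 to 70.1 CPM against 10.2 to 11.7 CPM, 2.41 ± 0.23). The lower one was the thymus subunit Psmb11 (-1.48 ± 0.60, adjusted p = 0.0388), whose call was lost without any 1 of the 7 KO libraries. Translation initiation factors were higher in 36 of 54 and lower in 7 (median 0.53). The list also holds genes for kinases and binding proteins of the factors, and all 7 lower members were of these kinds. Eif3i was the highest (1.49 ± 0.11), and the lower ones included Eif2ak4, the amino acid sensing kinase GCN2 (-2.0 ± 0.17). Eif4ebp3 had 0 counts in all 4 TRAP KO libraries, where 3 counts correspond to 0.105 to 0.176 CPM, and 0.292 to 0.656 CPM in input KO. Cytosolic tRNA synthetases were higher in 10 of 20 and lower in 1, led by Rars (1.11 ± 0.15). Chaperones were higher in 9 of 15 and lower in 0 (median 0.37). Splicing factors were higher in 6 of 15 and lower in 2 (median 0.13). Of all genes tested 36.3% were higher and 39.6% lower, so the 40% of splicing factors called higher was near the background.

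For these smaller differences the direction depended on the scaling. With library totals in place of TMM, the median of all genes moved by -0.73 on the log2 scale, and the called genes were 3133 higher and 9669 lower (24.5% higher, against 47.8% with TMM). On that scale chaperones were 0 higher and 10 lower (median -0.36), splicing factors 0 and 10, tRNA synthetases 1 and 13, and initiation factors 10 and 22 (median -0.20). Proteasome genes were 13 higher and 9 lower, and ribosomal protein genes 31 and 5 (median 0.30). Oxidative phosphorylation stayed high, with 69 higher and 1 lower (median 1.44).

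Calls also followed transcript length. Protein-coding genes were put into 4 groups of near equal size by their longest transcript. In the shortest group (median 1620 bases) 56.5% were higher in TRAP KO and 23.7% lower, with a median log2 fold change of 0.71. In the longest group (median 6372 bases) 17.6% were higher and 59.7% lower, with a median of -0.73. In the groups between, 41.5% and 31.4% were higher, and 33.9% and 42% were lower. The WT medians were 0.70 and -0.69 for the same shortest and longest groups. When length was modelled, which by construction removes any difference tied to length, ribosomal protein genes were 26 higher and 11 lower (median 0.11), oxidative phosphorylation 65 and 0 (median 0.99), and Purkinje identity genes 20 and 0 (median 3.02).

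**Figure D4:**
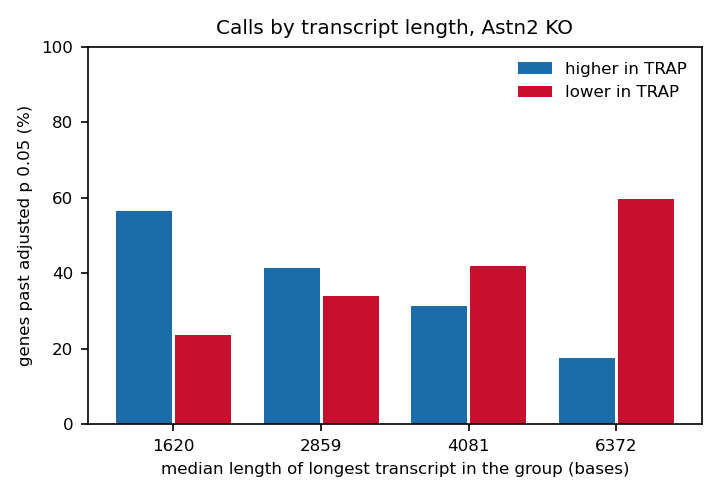
Share of protein-coding genes called higher (blue) or lower (red) in TRAP KO at an adjusted p under 0.05 (percent), in 4 equal groups by length of the longest transcript (bases, median of each group on the axis). The share called higher falls from 56.5% to 17.6% and the share called lower rises from 23.7% to 59.7%.

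Genes of synaptic vesicle release were mostly lower. Of 20, 14 were lower in TRAP KO (70%, against 39.6% of all genes) and 4 were higher (20%, against 36.3%). The median log2 fold change was -1.01. The higher ones were the vesicle proteins Vamp2 (2639, 2297, 2231 and 2382 CPM against 894, 917 and 1056 CPM, 1.33 ± 0.19), Syp (1.0 ± 0.19) and Vamp1 (0.85 ± 0.10), and the fusion regulator Cplx1 (1.16 ± 0.09). The calls of Syp and Vamp1 were lost with library totals (0.26 and 0.11). The lowest were the active zone scaffolds Rims1 (14.2, 29.4, 25.3 and 23.0 CPM against 148, 146 and 176 CPM, -2.77 ± 0.30), Pclo (-2.67 ± 0.28) and Bsn (-2.35 ± 0.18), and the vesicle calcium sensor Syt1 (-2.29 ± 0.18). No TRAP library overlapped the inputs in these 8 genes. Over all genes, every TRAP library lay above every input library in 37.8% and below in 40.2%.

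Whether the Purkinje programme differed in KO was asked with the genotype by fraction interaction, the log2 enrichment in KO minus that in WT. No gene of 16042 passed an adjusted p under 0.05 (0%) with edgeR, and 430 (2.68%) had an unadjusted p under 0.05, where 802.1 would be 5% of those tested. DESeq2 called 1 gene. Without TRAP WT replicate 3 no gene of 16255 passed with edgeR, and 645 had an unadjusted p under 0.05. The smallest adjusted p was 0.191. The median absolute difference was 0.18 on the log2 scale, and for 10510 genes (65.5%) the 95% interval of the difference lay within 1 log2 unit of 0. Of the genes called higher in KO, 94.6% were also called higher in WT (92.8% of the WT calls), and for lower calls the shares were 89.7% and 92.3%. In WT, 37% of the genes were called higher and 38.5% lower. No gene was called in opposite directions in the 2 genotypes.

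For the identity list no difference between KO and WT passed the test, and the median deficit in KO rested on 1 library. KO minus WT ranged from -0.73 for Slc9a3 (95% interval -1.82 to 0.35) to 0.27 for Slc1a6 (-0.29 to 0.83), with a median of -0.21, against -0.02 over all genes. 18 of 20 genes were below 0, none had an unadjusted p under 0.05, and for 15 the interval lay within 1 log2 unit of 0. Without TRAP WT replicate 3 the median was 0.07, the lowest gene was Gng13 at -0.45, 9 genes were below 0 and 2 had an unadjusted p under 0.05. Without that library Slc9a3 was 0.24 (-0.35 to 0.82) and Slc1a6 0.39 (-0.21 to 0.99), and for 18 genes the interval lay within 1 log2 unit of 0. Without any other library 15 to 19 genes were below 0. The summed level of the list was 10.5-fold above input in KO and 12.2-fold in WT (11.6-fold without TRAP WT replicate 3), where the TRAP sums were 104500, 107500 and, in replicate 3, 122600 CPM.

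The intervals of single markers differed in width. Pcp2 was enriched by 4.52 ± 0.20 in KO and 4.99 ± 0.18 in WT on the log2 scale, a difference of -0.47 (95% interval -0.97 to 0.02, unadjusted p = 0.0582, adjusted p = 0.999). Its TRAP KO libraries (8174 to 9700 CPM) lay below all TRAP WT libraries (10802 to 18639 CPM). For Calb1 both genotypes gave 2.81, and the difference had an interval of -0.35 to 0.34. The intervals were -0.50 to 0.15 for Car8, -0.55 to 0.10 for Inpp5a and -0.76 to 0.17 for Pcp4, but -0.96 to 0.90 for Gng13, whose TRAP WT libraries spread from 1426 to 5605 CPM. Without TRAP WT replicate 3 the Pcp2 difference was -0.14 (-0.41 to 0.12). Without it Gng13 was -0.45 (-0.83 to -0.07, unadjusted p = 0.024, adjusted p = 0.941) and Pcp4 -0.44 (-0.83 to -0.05, unadjusted p = 0.0289, adjusted p = 0.941). The intervals of the other 3 genes without it were -0.38 to 0.23 for Calb1, -0.41 to 0.17 for Car8 and -0.37 to 0.15 for Inpp5a, and still included 0.

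**Figure D5:**
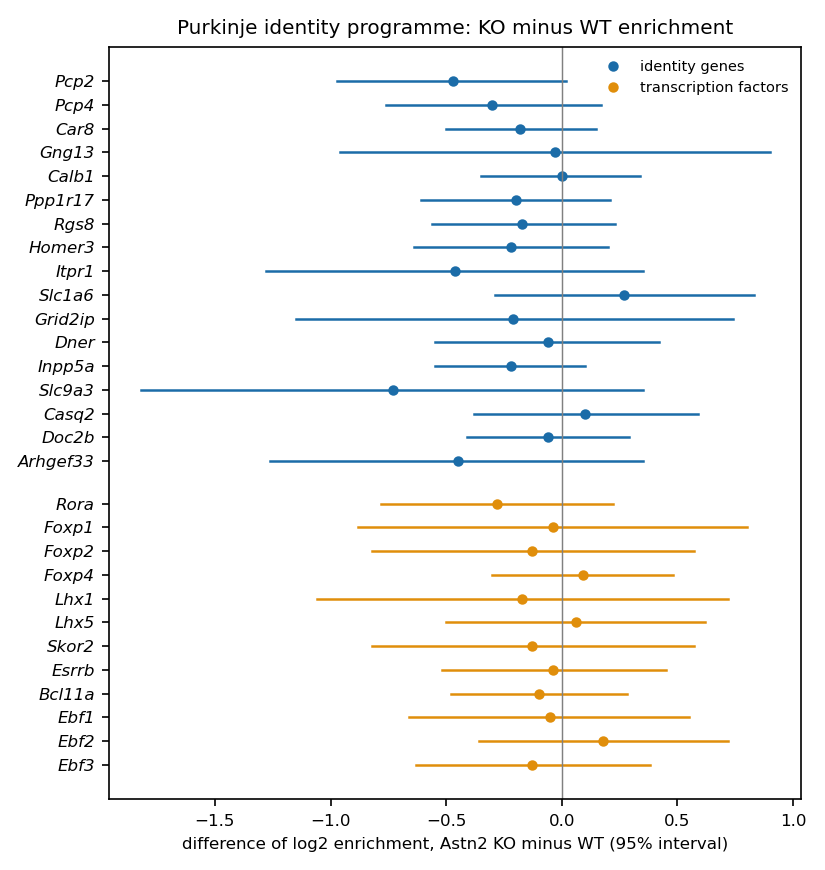
Difference of log2 enrichment (TRAP against input), Astn2 KO minus WT, for 17 of the 20 identity genes (blue) and 12 transcription factors (orange); points are estimates and lines 95% intervals, from the fit of all 14 libraries. Of the identity genes drawn 15 lie left of 0, and every interval drawn includes 0.

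For the transcription factors the difference had a median of -0.08 and ranged from -0.28 for Rora (95% interval -0.78 to 0.22) to 0.18 for Ebf2 (-0.36 to 0.72), and for 11 of 12 genes the interval lay within 1 log2 unit of 0. Without TRAP WT replicate 3 the median was -0.15 and the interval lay within 1 log2 unit for 11 of 12 again, with Rora at -0.24 (-0.75 to 0.26) and Ebf2 at 0.09 (-0.47 to 0.65). The range was then -0.45 for Foxp1 (-0.83 to -0.08, unadjusted p = 0.0213, adjusted p = 0.941) to 0.47 for Lhx1 (-0.14 to 1.08). Foxp1 was below input in WT as well, at -1.20 ± 0.28, and at -0.82 ± 0.14 without that library.

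The lists of other cells differed in how far KO and WT depletion matched. The median difference was 0.14 to 0.18 for the granule cell, interneuron, Bergmann glia and astrocyte, oligodendrocyte, oligodendrocyte precursor and microglia lists, and -0.08 to 0.05 without TRAP WT replicate 3. It was larger for endothelium (0.63, with 0 of 8 genes below WT), deep nuclear neuron (0.62) and mural cell (0.39), and without that library it was 0.96, 0.41 and 0.56. It was -0.33 for unipolar brush cell (-0.11 without that library), -0.22 for erythrocyte (-0.46) and -3.15 for choroid plexus (-2.95). The choroid plexus calls in KO rested on input KO replicate 2. Some WT libraries also carried Ttr, at 97 and 66.2 CPM in TRAP WT replicates 2 and 3. In input WT replicates 2 and 3 it was 359 and 251 CPM. No single gene of these lists passed the interaction test.

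Of the genes with a log2 fold change of at least 3 in WT, 349 of 350 were called higher in KO (99.7%), with a median of 3.25 in KO and 3.44 in WT. Of those at -3 or below in WT, 403 of 433 were called lower in KO (93.1%), with medians of -2.68 in KO and -3.56 in WT. Genes picked by their KO value gave medians of 3.47 in KO and 3.53 in WT for the 266 higher genes, and -3.41 in KO and -3.16 in WT for the 283 lower ones. Of these, 263 (98.9%) and 238 (84.1%) were called in WT. For the lower genes, the genotype that picked them had the median farther from 0. Without TRAP WT replicate 3 the medians in KO and WT were 3.31 and 3.49, and -2.68 and -3.69, for genes picked by WT, and 3.45 and 3.55, and -3.42 and -3.11, for genes picked by KO.

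The 3 genes with the smallest interaction p were chosen by that p and are given as a description. Pcdha6, a clustered protocadherin of neuronal self-recognition, had 6.40, 7.33, 5.86 and 6.64 CPM in TRAP KO and 1.39, 1.25 and 1.97 CPM in input KO, while in WT it was 2.61 to 3.94 CPM in TRAP and 2.63 to 4.30 CPM in input. KO libraries of the 2 fractions lay on either side of all WT libraries. The difference was 2.07 (95% interval 1.41 to 2.74, adjusted p = 0.191 with edgeR; 1.88 and adjusted p = 0.509 without TRAP WT replicate 3), and it was the 1 gene called by DESeq2 (adjusted p = 4.87e-06). Protocadherin alpha genes share their last exons, so counts may be split between them. B2m, the light chain of class I histocompatibility molecules, had 34.2, 38.1, 43.4 and 24.5 CPM in TRAP KO against 13.5 to 18.7 CPM in input KO, and 15.1 to 23.9 CPM in TRAP WT against 16.9 to 20.1 CPM in input WT (difference 1.15, interval 0.60 to 1.71, adjusted p = 0.999; 1.02 without TRAP WT replicate 3). Ptprcap, a phosphatase-associated protein of lymphocytes, was at most 0.469 CPM in TRAP KO and 0.0563 CPM in TRAP WT, close to the level of 3 counts.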

How the data were processed

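The authors deposited raw counts, whole numbers per Entrez gene for 14 libraries. Per the submitters' processing notes, Salmon 0.8.2 and mm10 were used, with no role stated. Annotation, strand setting and any rounding of estimated counts are not given in the sources used here. The table holds 24100 genes, 2930 of them with 0 counts throughout. RefSeq (GRCm38.p6) gave symbols for 24045 and the promoters, and GENCODE M21 gave the longest transcript of 21166. Libraries were grouped by label. Pairs of libraries in a group differed by chi-square per degree of freedom of 8.63 to 267, so none was a repeat of another.

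edgeR 4.0.16 in R 4.3.3 was run on all 14 libraries (TMM factors, filterByExpr, group means and sex, two-sided quasi-likelihood F test, Benjamini-Hochberg adjustment at 0.05), after a test on simulated data. The SE of a log2 fold change is its size divided by the square root of F, and intervals are 95%. All adjusted p are from edgeR unless DESeq2 1.42.0 is named. CPM uses TMM library sizes. At a depth of 21409528 to 54229183 counts in KO, 3 counts are 0.0438 to 0.176 CPM. This covers counting error only, since reads are not independent molecules.

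The members and all gene lists were chosen with earlier results of these data known. Named genes were the targeted and tagged genes, the 4 markers, the 10 highest and 10 lowest log2 fold changes among called genes with a mean CPM of at least 10 and no overlap, for each list up to 4 genes with the largest change and those against its direction, the identity and transcription factor genes that differed most between genotypes, and the 3 smallest interaction p. Genes named for their known role after their values were seen are Skor2, Itpr1, Gnaq, Plcb3, Plcb4, Aldoc, Gria2, Cacna1a, Atp2b1 and Slc8a2, and some that close a list's range. Alternatives were DESeq2 size factors, library totals, the DESeq2 Wald test, no filter on low counts, only genes with mean counts of 50 or more, no sex term, transcript length offsets (loess, span 0.3), the 7 KO libraries alone, a replicate block, a log2 fold change of at least 1, and each library left out. Some genes of the lists are counted in them but not reported here by name. The mitochondrial genome and 2 haemoglobin genes were not analysed here.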

Additional observations from a re-analysis of the deposited data

Results flagged for a closer look

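Among the 4 TRAP KO libraries, a library that stood far from the other 3 was looked for in the 164 named genes, as the gap to its nearest neighbour over the whole range on the log2(CPM + 1) scale. It was found in 10 of them (6.1%). Chance gives about 1 in 20 groups, or 8.2 of these genes, so the count alone is near what chance gives. All of them lay in TRAP KO replicate 1 or 4. That pair differed by a chi-square per degree of freedom of 62.8, against 8.63 for replicates 2 and 3. The values below are listed as a description. In TRAP KO replicate 4 the lowest values were Pcp2, with a gap ratio of 0.918 (8170 CPM against 9560 to 9700 CPM), the plasma membrane calcium pump gene Atp2b1 with 0.946 (39.8 against 59.1 to 60.5 CPM) and the oligodendrocyte precursor gene Cspg4 with 0.956 (1.15 against 1.89 to 1.94 CPM). The same replicate was the highest for Prkcd, with a ratio of 0.933 (200 against 145 to 148 CPM), and for the arginyl-tRNA synthetase gene Rars, with 0.837 (98.5 against 64.8 to 69.4 CPM). Replicate 1 was the highest for Pvalb, with a ratio of 0.879 (17100 against 12100 to 12600 CPM), Lhx1os, with 0.841 (1240 against 785 to 844 CPM), and the splicing factor Srsf9, with 0.917 (88.6 against 76.4 to 77.3 CPM). It was the lowest for the methionyl-tRNA synthetase gene Mars1, with 0.961 (27.9 against 37.8 to 38.3 CPM), and the chaperonin subunit Cct5, with 0.894 (143 against 168 to 171 CPM).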

How the results depend on the processing

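The 5817 higher and 6359 lower calls changed most with library totals, which gave 3133 higher and 9669 lower, and with a log2 fold change of at least 1, which left 3557 higher. Leaving out each KO library in turn gave 5397 to 5740 higher and 5884 to 6195 lower. The interaction stayed at 0 calls under each edgeR setting, leave-one-out fits included (unadjusted p under 0.05: 311 to 1934 genes, the most without TRAP WT replicate 2, and 1057 without TRAP WT replicate 1), and DESeq2 gave 1. Whether equal replicate numbers mark the same homogenate is not given, and correlations of deviations did not settle it. In KO, same-numbered libraries gave 0.225, 0.225 and -0.125, and TRAP 4 with input 3 gave 0.346. In WT, same-numbered libraries gave 0.292, 0.243 and 0.098, and TRAP 3 with input 4 gave 0.181. The main fit treated TRAP and input libraries as unpaired. The replicate block gave 5970 higher, 6539 lower and 0 interaction calls.

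Of 164 named genes, 44 changed a call or sign under some setting. Signs turned with library totals for Ptprcap (-0.28), Cct5 (-0.15), Hsp90aa1 (-0.19) and Dnajb1 (-0.27). With length offsets they turned for Ptprcap (-0.52), B2m (-0.03), Gria1 (0.07), Nlgn1 (0.08), Ryr1 (0.36), Atxn1 (0.43), Tbp (0.42), Ttbk2 (0.27) and Rpl38 (0). Without input KO replicate 2 the sign of Kcne2 turned (0.95, against -6.39 without input KO replicate 3). The cause was not tested. Depth limits genes near the level of 3 counts.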

Other observations

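Small noncoding RNA genes were few among the genes tested in KO. Of 17 small nucleolar RNA genes, 10 were lower in TRAP (58.8%) and 3 were higher, with a median log2 fold change of -1.83 in KO and -2.09 in WT. Of 35 miRNA genes, 18 were lower (51.4%) and 8 higher, with medians of -1.10 and -1.40. The background was 39.6% lower. These genes lie within longer transcripts, so reads of a host transcript cannot be told apart from their own. Of 139 transcribed pseudogenes, 33 were higher and 47 lower, with medians of -0.20 and -0.12.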
